A study of Mus musculus with 27 samples.

Results

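The Ets family is a group of transcription factors that share a DNA-binding domain recognising a GGAA or GGAT core. Its 10 members described here, Elf3, Ehf, Elf1, Ets1, Ets2, Etv1, Etv4, Etv5, Etv6 and Erg, were taken by name from the 24953 genes of a deposited RNA-seq table, and all 10 had a row in it. The table holds 9 libraries of mK4 cells, a cultured line derived from mouse metanephric mesenchyme, the tissue that forms the nephrons of the kidney. There were 3 libraries of unedited control cells, 3 of Runx1KO cells, in which exon 3 of Runx1 was deleted with CRISPR-Cas9 under puromycin selection before clones were picked, and 3 of ZebDKO cells, in which exon 2 of Zeb1 and exon 1 of Zeb2 were deleted in the parental mK4 line by the same method. All 3 groups were grown until nearly confluent in medium with 10% serum and received no other treatment. The number of clones sequenced was not given, so clone and genotype cannot be told apart, and nothing states that libraries of a group came from separate clones, so p-values measure the spread between these libraries only. ATAC-seq and Runx ChIP-seq peaks of control and Runx1KO cells were used for the loci of the members. No such peaks of ZebDKO cells were used here.

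Ets factors bind DNA alone or beside partners such as Runx factors and AP-1, and many of them are switched by phosphorylation through ERK, the last kinase of the growth factor pathway. Elf3 and Ehf, of the ESE subfamily, are known from epithelia. Ets1 and Ets2 are direct ERK substrates, and Etv1, Etv4 and Etv5 form the PEA3 subfamily. In the kidney Etv4 and Etv5 act in the ureteric bud downstream of the receptor Ret. Elf1 is widely expressed, Etv6 is a repressor, and Erg is a factor of endothelial cells. Runx1 is a DNA-binding factor with an Ets partner site in many enhancers, and Zeb1 and Zeb2 are repressors of epithelial genes that bind the letters CAGGTG.

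Levels are given in TPM, that is read counts divided by gene length and brought to the same total in each library. Genes that reached 1 TPM in 3 or more of the 6 libraries compared were tested with limma on log2(TPM+1), a scale on which the change of a low gene, such as Ehf or Etv1, comes out too small. A gene was called, and is said to have risen or fallen, at a change over 2-fold and a Benjamini-Hochberg adjusted p under 0.05 over all genes tested. The 3 libraries of a group correlated with r between 0.9941 and 0.9955 over 13374 genes, and between 12541 and 12697 genes reached 1 TPM in a library. Gene-level TPM does not check the deletion of single exons. Runx1 itself was at 18.7, 15.6 and 17.9 TPM in control, 30.3, 30.1 and 28.5 TPM in Runx1KO and 9.4, 10.5 and 10.4 TPM in ZebDKO. Zeb1 was at 15.1, 14.2 and 15.6 TPM in control, 0.1, 0.2 and 0.2 TPM in Runx1KO and 16.8, 16.6 and 14.8 TPM in ZebDKO, and Zeb2 was at 5.5, 4.9 and 5.2, at 0.2 in all 3, and at 1.7, 1.8 and 1.6 TPM. Low Zeb1 and Zeb2 RNA was therefore measured in the Runx1KO libraries, and Runx1 RNA was not lower there.

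Elf3, Ets2 and Ehf rose in Runx1KO cells, and Elf3 and Ets2 rose in ZebDKO cells. Etv1 fell in ZebDKO cells and did not change 2-fold in Runx1KO cells. Of the 9 members tested, 3 were called higher in Runx1KO cells and 0 lower, where 7.91% of all 13067 genes tested were called higher and 5.10% lower. In ZebDKO cells 2 were called higher and 1 lower, against 7.49% and 7.28% of 12974 genes. The 2 comparisons share the control libraries. Erg was listed at 0 in all 9 libraries and was not tested. The median change of the 9 members was 0.37 on the log2 scale in Runx1KO cells and 0.07 in ZebDKO cells, beside -0.06 and -0.18 over all genes tested.

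**Figure D1:**
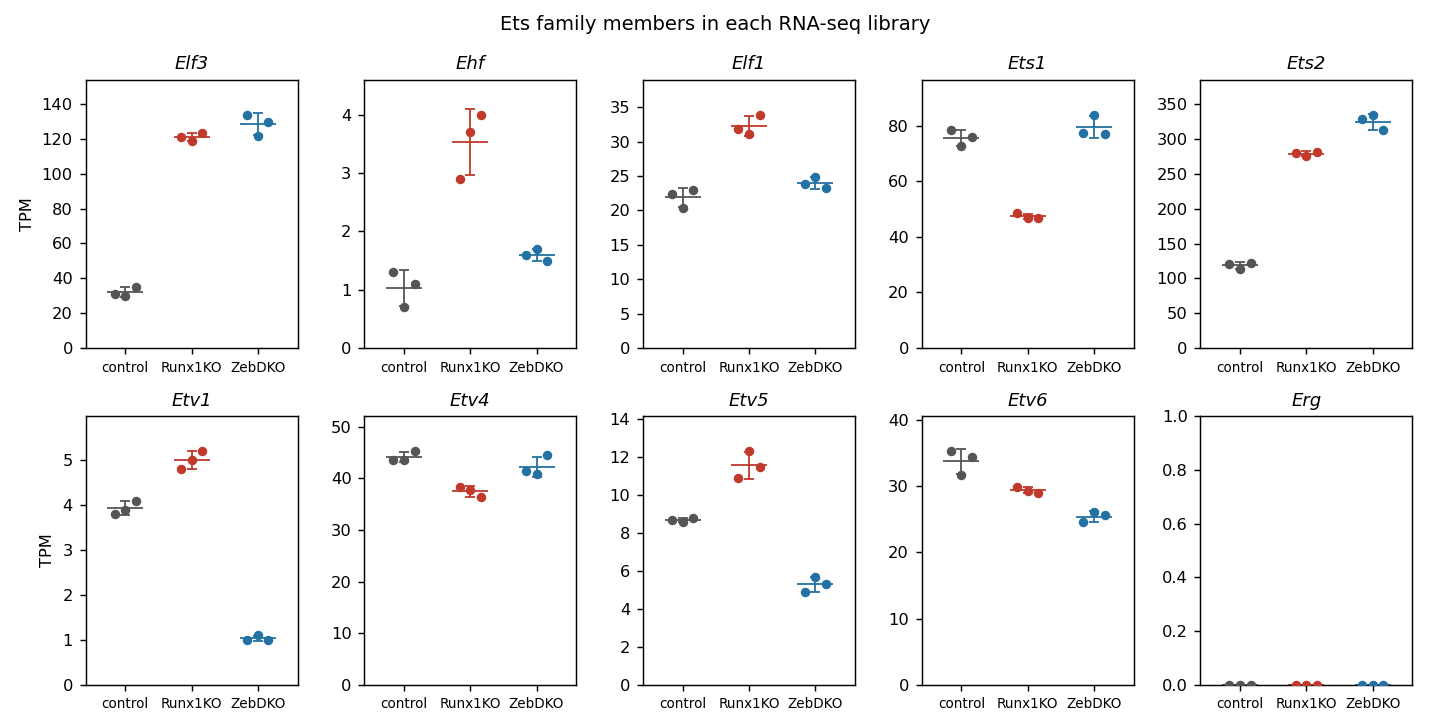
TPM of each of the 10 Ets family members in the 9 RNA-seq libraries, 3 per group (points), with the mean and SD (horizontal line and whiskers), on a linear axis from 0 that differs between panels. Elf3 and Ets2 sit far above the control libraries in both knockouts, Ehf is highest in Runx1KO and Etv1 lowest in ZebDKO, and Erg is at 0 throughout.

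Elf3 is an activator of epithelial differentiation genes. It was at 30.8, 30.0 and 35.3 TPM in the control libraries, at 120.8, 118.9 and 123.4 TPM in Runx1KO and at 133.8, 121.5 and 129.7 TPM in ZebDKO. Every knockout library was above every control library, and the knockouts overlapped each other. The means of 121.0 ± 2.26 and 128.3 ± 6.26 TPM (SD, n = 3) were 3.78 and 4.01 times the control mean of 32.0 ± 2.86 TPM (n = 3). On the log2 scale the rise was 1.89 (SE 0.061, limma adjusted p = 3.09e-07) in Runx1KO cells and 1.97 (SE 0.067, limma adjusted p = 3.24e-07) in ZebDKO cells, the largest change of any member in each. Set directly against Runx1KO, ZebDKO differed by 0.08 (95% interval -0.01 to 0.18, limma adjusted p = 0.0923). This difference was 0.25 (limma adjusted p = 0.0014) with median-ratio scaling of the libraries and 0.12 (limma adjusted p = 0.0116) without ZebDKO replicate 2.

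Elf3 (ENSMUSG00000003051.7) lies on the minus strand of mouse chromosome 1, from 137150151 to 137155049 of the mm9 build. ATAC-seq marks open chromatin, and each gene was given a domain from 5 kb before to 1 kb after its start, extended towards the next protein-coding genes by at most 1000 kb. The domain of Elf3 held 9 peaks that opened in Runx1KO cells, 0 that closed and 2 that stayed open. At least 9 opening peaks were found in the domains of 0.804% of 10939 protein-coding genes expressed at 1 TPM or more in at least 3 of the 9 libraries. The 9 peaks lay between 9.9 kb before and 80.5 kb after the start of Elf3, and 1 of them overlapped a Runx2 ChIP-seq peak, which was listed in both control and Runx1KO cells. None lay in Elf3 itself, and the nearest, 9.9 kb to either side, were in exons of Rnpep and Gm16606. The farthest, from 137074266, lay near the domain edge at 137069258, where the stretch around the start of another gene begins. Peaks were given to Elf3 by position only. No Runx1 peak was listed in the domain.

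Ets2, a widely expressed ERK substrate, had the highest level of the 10 members in each group of this table. It was at 120.8, 113.5 and 122.4 TPM in control, at 280.2, 275.1 and 282.1 TPM in Runx1KO and at 328.2, 335.0 and 312.5 TPM in ZebDKO. The 3 groups did not overlap, with ZebDKO highest. The rise was 1.23 on the log2 scale (SE 0.034, limma adjusted p = 1.63e-07), 2.35 times the control mean of 118.9 ± 4.74 TPM, in Runx1KO cells, and 1.44 (SE 0.041, limma adjusted p = 1.37e-07), 2.74 times, in ZebDKO cells. ZebDKO exceeded Runx1KO by 0.22 (SE 0.031, limma adjusted p = 0.000393), under the 2-fold limit.

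Ets2 (ENSMUSG00000022895.8) is on the plus strand of chromosome 16, from 95923682 to 95942658, and its start is 3.1 Mb from that of Runx1 and 0.115 Mb from that of Erg. Its domain held 13 opening, 6 closing and 17 stable ATAC-seq peaks, and some of the opening peaks between Ets2 and Erg were counted for both genes. Of the 13 opening peaks 9 were within 100 kb of the start and 0 overlapped a Runx1 or Runx2 peak. A Runx2 peak lay over the start itself in control and in Runx1KO cells, with a MACS2 fold over background of 3.74 and 3.86, and overlapped a stable ATAC-seq peak. The single Runx1 peak of the domain, 125.3 kb after the start with a fold of 4.76, overlapped a closing peak and Runx2 peaks of both lines. The fold values come from pooled replicates and have no replicate error.

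Ehf, like Elf3 an ESE factor, has roles in epithelia of glands and airways. It was near the lower limit of the table, at 1.3, 0.7 and 1.1 TPM in control, at 2.9, 3.7 and 4.0 TPM in Runx1KO and at 1.6, 1.7 and 1.5 TPM in ZebDKO. The 3 groups did not overlap, with Runx1KO highest, but the table has steps of 0.1 TPM. Ehf rose by 1.16 on the log2 scale in Runx1KO cells (SE 0.145, limma adjusted p = 0.000307) and was at 0.85 (limma adjusted p = 0.000497), under the limit, in a second deposited TPM table of the same groups. In ZebDKO cells the difference from control was 0.37 (SE 0.127, limma adjusted p = 0.0302), which passed 0.05 no longer without any one of the ZebDKO libraries (limma adjusted p from 0.0514 to 0.0822) or without control replicate 2 (0.0625), and ZebDKO was 0.79 below Runx1KO (difference -0.79, SE 0.107, limma adjusted p = 0.000284). Unlike in the domain of Elf3, closing peaks outnumbered opening ones at Ehf, with 9 closing, 5 opening and 7 stable peaks, and at least 9 closing peaks were found in the domains of 1.38% of the 10939 genes.

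Ehf (ENSMUSG00000012350.8) is on the minus strand of chromosome 2, from 103103590 to 103143435. It was the member with the most ChIP-seq peaks, with 3 Runx1 peaks and 9 Runx2 peaks in control and 8 Runx2 peaks in Runx1KO cells. Of the 9 closing peaks 2 overlapped a Runx1 peak, 4 a Runx2 peak of control and 4 a Runx2 peak of Runx1KO cells. The Runx1 peaks at 93.7 and 88.3 kb after the start had folds of 6.71 and 6.56, overlapped closing ATAC-seq peaks, and were also Runx2 peaks in both lines. The third, in an intron 9.3 kb after the start with a fold of 4.60, overlapped a stable peak and a Runx2 peak of control cells, with none listed there in Runx1KO cells. The 2 opening peaks nearest the start lay 0.7 and 2.8 kb before it and held no Zeb match in their middle 200 bp.

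The sequences of 6 peaks are shown because they lie at the members that rose, or at Ets1, and hold the letters that Zeb or Runx factors bind. The opening peaks shown are the nearest opening ones with a Zeb match to the start of Elf3, Ehf and, on each side, Ets2, and the closing ones the nearest closing peaks with a Runx match at Ehf and Ets1. Peaks of other classes or with other letters lie nearer, and the set was chosen after the values were seen. Each is the middle 200 bp on the plus strand of mm9. Capitals mark matches on either strand to Zeb (CAGGTG or CAGGTA), Runx (TGTGGT) and AP-1 (TGACTCA or TGAGTCA) letters, of which different kinds can share a pair of bases at their ends. The first 4 peaks opened in Runx1KO cells and the last 2 closed.
Elf3 opening peak 9.9 kb after the start, in an exon of the lincRNA Gm16606, chr1:137145097-137145296: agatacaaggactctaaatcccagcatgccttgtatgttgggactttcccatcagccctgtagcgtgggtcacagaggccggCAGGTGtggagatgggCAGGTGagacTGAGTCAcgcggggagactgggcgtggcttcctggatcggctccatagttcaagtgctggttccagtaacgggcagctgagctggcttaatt
Ets2 opening peak 19.5 kb before the start, intergenic, chr16:95904088-95904287: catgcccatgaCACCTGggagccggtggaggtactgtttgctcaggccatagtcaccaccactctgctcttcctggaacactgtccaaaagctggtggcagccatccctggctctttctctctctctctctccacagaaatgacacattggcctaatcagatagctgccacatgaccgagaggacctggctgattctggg
Ets2 opening peak 14.4 kb after the start, shown part in an intron of Ets2, chr16:95937943-95938142: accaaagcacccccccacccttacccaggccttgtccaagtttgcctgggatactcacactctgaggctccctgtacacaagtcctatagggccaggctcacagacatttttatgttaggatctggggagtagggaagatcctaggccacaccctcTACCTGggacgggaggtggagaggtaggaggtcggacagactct
Ehf opening peak 10.8 kb before the start, intergenic, chr2:103154116-103154315: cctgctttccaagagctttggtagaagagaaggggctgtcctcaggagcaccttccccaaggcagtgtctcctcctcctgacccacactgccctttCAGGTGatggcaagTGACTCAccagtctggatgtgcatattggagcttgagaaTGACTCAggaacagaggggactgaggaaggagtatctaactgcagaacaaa
Ehf closing peak 13.6 kb after the start, in an intron of Ehf, chr2:103129775-103129974: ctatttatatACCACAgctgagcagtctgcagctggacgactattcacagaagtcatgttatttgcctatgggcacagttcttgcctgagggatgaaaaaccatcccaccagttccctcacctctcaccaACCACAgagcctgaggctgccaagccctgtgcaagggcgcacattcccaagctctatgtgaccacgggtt
Ets1 closing peak 78.5 kb after the start, in an intron of Ets1, chr9:32522167-32522366: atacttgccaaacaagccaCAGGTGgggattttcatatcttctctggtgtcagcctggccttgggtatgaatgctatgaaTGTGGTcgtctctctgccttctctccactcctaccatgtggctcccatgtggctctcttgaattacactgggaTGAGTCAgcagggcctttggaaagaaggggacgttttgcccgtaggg
The Elf3 sequence holds 2 Zeb matches and 1 AP-1 match, the Ets2 sequences 1 Zeb match each, and the Ehf sequence before the start 1 Zeb and 2 AP-1 matches. The closing Ehf sequence holds 2 Runx matches and overlapped a Runx2 peak of control cells, with none listed there in Runx1KO cells. The closing Ets1 sequence holds 1 match of each kind and overlapped Runx2 peaks of both lines.

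Over the domains of the 10 members, 20 of 40 opening peaks held a Zeb match in the middle 200 bp (50.0%, Wilson 95% interval 35.2 to 64.8%), beside 50.8% of all 9427 opening peaks, 23.5% of stable and 12.0% of closing peaks of the genome. By gene, this was 2 of 9 at Elf3, 8 of 13 at Ets2 and 3 of 5 at Ehf. A Runx match was found in 6 of 34 closing peaks of the members (17.6%, interval 8.35 to 33.5%), beside 26.9% of all 8741 closing peaks. An AP-1 match was in 14 of these 34 (41.2%, interval 26.4 to 57.8%) and in 15 of the 40 opening peaks (37.5%, interval 24.2 to 53.0%), beside 25.5% and 27.1%. The intervals cover counting error only, and peaks of 1 domain are not independent. The class share lay inside the interval of the members for Zeb letters in opening peaks, Runx letters in closing peaks and AP-1 letters in opening peaks, and just under it for AP-1 letters in closing peaks.

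**Figure D2:**
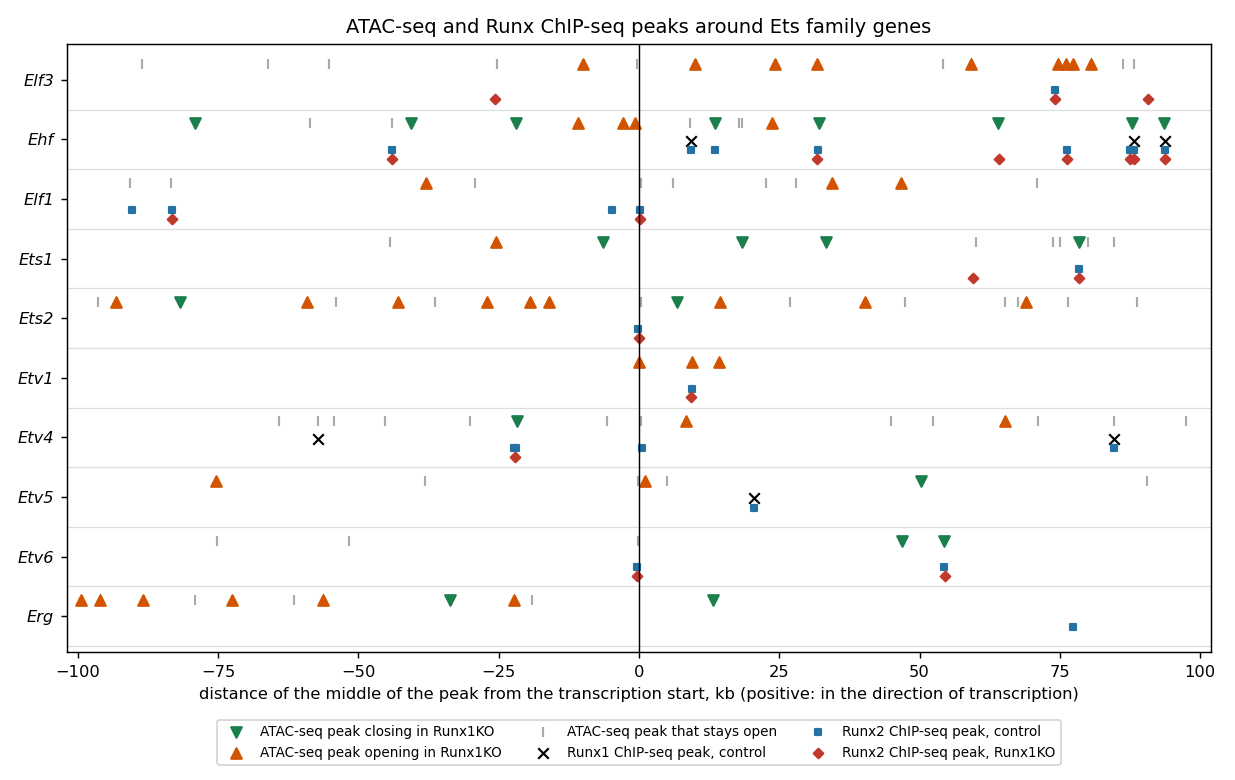
Position of ATAC-seq peaks (upper symbols, by class) and Runx ChIP-seq peaks (lower symbols) within 100 kb of the start of each member, in kb along the direction of transcription. Opening peaks line up after the start of Elf3 and on both sides of Ets2, while closing peaks and Runx peaks gather at Ehf. Peaks outside the domain of a member are drawn too, as at Elf1, whose opening peaks after the start lie inside the gene. Some peaks appear at both Erg and Ets2.

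Of the 10 members 9 had an opening peak in the domain, 7 a closing peak and 10 a stable peak, where 43.7%, 35.9% and 94.9% of the 10939 genes had one. Opening peaks outnumbered closing ones at 4 members, Elf3, Ets2, Etv1 and Etv5, and closing ones were more at 4, Ehf, Ets1, Etv6 and Erg, beside 29.6% and 22.8% of genes. Elf1 had neither kind in its domain, and Etv4 had 1 of each. The domain of Elf1 ends 1 kb after its 5′ start, at 79882001, and leaves out most of the gene, which runs to 79982283. Opening peaks 34.4 and 46.7 kb after that start lie inside Elf1 and were not counted for it. The first of these is near the start of its other transcripts, at 79915481 or 79915493. Runx1 peaks of control cells were in the domains of 7 members, beside 47.5% of genes, and Runx2 peaks in those of 10 in control and 8 in Runx1KO cells, beside 72.2% and 72.2%. Domains of different length were not matched, and the domains of Ets1 and Etv1 reach the 1000 kb limit on at least 1 side. Within 100 kb of the start only 3 members, Ehf, Etv4 and Etv5, had a Runx1 peak.

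Ets1, the founding member of the family, was lower in Runx1KO cells, by less than 2-fold. It was at 78.5, 72.7 and 75.8 TPM in control, at 48.4, 46.7 and 46.9 TPM in Runx1KO and at 77.5, 83.9 and 77.0 TPM in ZebDKO. All Runx1KO libraries were below all others, and control and ZebDKO overlapped. The Runx1KO mean of 47.3 ± 0.929 TPM was 0.626 times the control mean of 75.7 ± 2.90 TPM, a difference of -0.67 on the log2 scale (SE 0.037, limma adjusted p = 4.97e-06) that stayed under the 2-fold limit. ZebDKO differed from control by 0.07 (95% interval -0.04 to 0.18, limma adjusted p = 0.208) and from Runx1KO by 0.73 (SE 0.041, limma adjusted p = 3e-06). With median-ratio scaling of the libraries the difference of ZebDKO from control was 0.27 (limma adjusted p = 0.000685).

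Ets1 (ENSMUSG00000032035.7) is on the plus strand of chromosome 9, from 32443806 to 32565405, and only 1 of its 4 transcripts begins at this start, while the others begin at 32503627. Its domain held 5 closing, 1 opening and 10 stable peaks. The closing peaks lay 6.5 kb before and 18.4, 33.4, 78.5 and 622.2 kb after the 5′ start. The peak at 78.5 kb, whose sequence is shown above, is inside the gene and was a Runx2 peak with a fold of 3.66 in control and 3.48 in Runx1KO cells. No Runx1 peak was listed within 100 kb. A further Runx2 peak, 59.5 kb after the 5′ start and next to the start of the other transcripts, was listed in Runx1KO cells, with no overlapping peak in control.

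Of the PEA3 factors, Etv1 was the one called. Etv1, which is also a neuronal identity factor, was at 3.8, 3.9 and 4.1 TPM in control, at 4.8, 5.0 and 5.2 TPM in Runx1KO and at 1.0, 1.1 and 1.0 TPM in ZebDKO. The 3 groups did not overlap, and ZebDKO was lowest. Etv1 fell by 1.28 on the log2 scale in ZebDKO cells (SE 0.075, limma adjusted p = 3.9e-06), to 0.263 times the control mean. In Runx1KO cells it was 0.28 higher (SE 0.060, limma adjusted p = 0.00453), under 2-fold. Set directly against Runx1KO, ZebDKO was lower by -1.56 (SE 0.070, limma adjusted p = 1.05e-06), the only call among the 9 members in this comparison, where 9.20% of 13071 genes were called lower and 6.59% higher.

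Etv5, a partner of Etv4 in branching of the ureteric bud, showed the same order at a smaller size. It was at 8.7, 8.6 and 8.8 TPM in control, at 10.9, 12.3 and 11.5 TPM in Runx1KO and at 4.9, 5.7 and 5.3 TPM in ZebDKO. Again the 3 groups did not overlap. The difference from control was 0.37 (SE 0.055, limma adjusted p = 0.000698) in Runx1KO and -0.62 (SE 0.065, limma adjusted p = 7e-05) in ZebDKO cells. ZebDKO and Runx1KO differed by -0.997 (SE 0.070, limma adjusted p = 8.86e-06), just inside the 2-fold limit on the log2(TPM+1) scale, with a Runx1KO mean 2.18 times that of ZebDKO. With a pseudocount of 0.1 in place of 1 this difference was -1.11 and passed the limit. Over all alternatives it ranged from -1.11 to -0.85, the weaker end lying under 2-fold.

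Etv4, the PEA3 member with the highest level, was at 43.6, 43.5 and 45.2 TPM in control, at 38.4, 37.7 and 36.3 TPM in Runx1KO and at 41.4, 40.9 and 44.5 TPM in ZebDKO. Runx1KO was below both other groups, which overlapped. The difference was -0.23 (SE 0.035, limma adjusted p = 0.000901) in Runx1KO cells. In ZebDKO cells it was -0.06 (95% interval -0.16 to 0.04, limma adjusted p = 0.236), and 0.14 (limma adjusted p = 0.0276) with median-ratio scaling. The means were 0.850 and 0.958 times that of control, the smallest changes of the PEA3 members.

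At the PEA3 loci the changing peaks were mostly opening ones. Etv1 (ENSMUSG00000004151.8, chromosome 12, 39505967 to 39594802, plus strand) had 5 opening, 0 closing and 2 stable peaks, and 1 of the opening peaks lay over its start, with 2097 bp in width. A second, 9.4 kb after the start, overlapped Runx2 peaks with folds of 4.15 in control and 4.67 in Runx1KO cells. Etv5 (ENSMUSG00000013089.8, chromosome 16, 22381382 to 22439792, minus strand) had 3 opening, 1 closing and 8 stable peaks and an intronic Runx1 peak 20.5 kb after the start with a fold of 4.67. That Runx1 peak coincided with a Runx2 peak of control cells with a fold of 5.13, and no Runx2 peak was listed in the domain in Runx1KO cells. Etv4 (ENSMUSG00000017724.8, chromosome 11, 101631056 to 101646685, minus strand) had 1 opening, 1 closing and 8 stable peaks.

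Elf1 was at 22.4, 20.3 and 23.0 TPM in control, at 31.9, 31.1 and 33.9 TPM in Runx1KO and at 23.8, 24.9 and 23.2 TPM in ZebDKO. The 3 groups did not overlap, although control and ZebDKO came within 0.2 TPM of each other. The difference was 0.54 (SE 0.057, limma adjusted p = 0.000132) in Runx1KO and 0.13 (SE 0.058, limma adjusted p = 0.0782) in ZebDKO cells, or 0.32 (limma adjusted p = 0.000918) with median-ratio scaling. Etv6 was at 35.2, 31.6 and 34.4 TPM in control, at 29.8, 29.3 and 29.0 TPM in Runx1KO and at 24.5, 26.0 and 25.6 TPM in ZebDKO, again without overlap. It was lower by less than 2-fold in both, at -0.19 (SE 0.047, limma adjusted p = 0.00808) and -0.40 (SE 0.052, limma adjusted p = 0.000247). Between the knockouts Etv6 differed by -0.20 (limma adjusted p = 0.00161), and by -0.05 (limma adjusted p = 0.272) with median-ratio scaling.

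**Figure D3:**
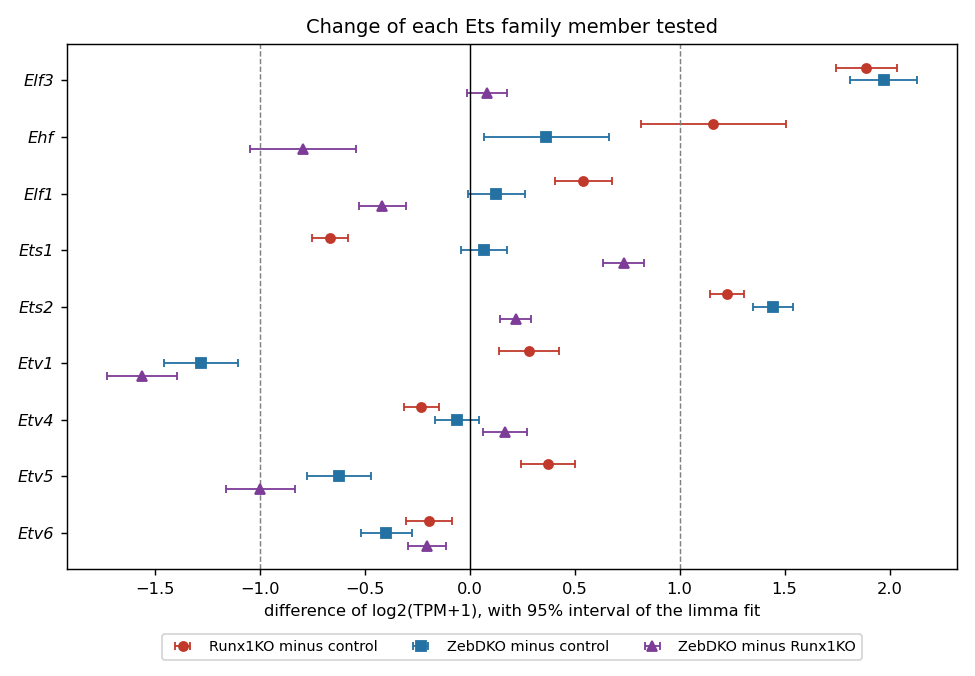
Difference of log2(TPM+1) with its 95% interval from limma for the 9 members tested, in Runx1KO minus control, ZebDKO minus control and ZebDKO minus Runx1KO. Dashed lines mark a 2-fold change on this scale. Elf3 and Ets2 lie right of the line in both knockouts, Ehf in Runx1KO, and Etv1 lies left of it in both comparisons of ZebDKO.

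Without the 2-fold limit, 9 of 9 members passed an adjusted p of 0.05 in limma in Runx1KO cells, where 70.5% of all genes did. In ZebDKO cells 6 of 9 passed, beside 79.4%, and between the knockouts 8 of 9, beside 80.0%. The ZebDKO count was not stable, since 9 of 9 passed with median-ratio scaling and 5 of 9, without Ehf, when no filter was set or when any ZebDKO library or control replicate 2 was left out. The libraries of the groups did not overlap for 9, 7 and 8 members, beside 73.7%, 81.0% and 81.7% of genes. These shares were so high over the whole table that passing this limit alone did not set the members apart.

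Summed over the 10 members, the level was 340.0 ± 13.4 TPM in control, 566.7 ± 6.36 TPM in Runx1KO and 632.6 ± 10.8 TPM in ZebDKO (SD, n = 3). Ets2 made up 35.0% of this sum in control, 49.3% in Runx1KO and 51.4% in ZebDKO, and Elf3 9.41%, 21.4% and 20.3%. Ets1 made up 22.3% in control, 8.35% in Runx1KO and 12.6% in ZebDKO, where its own level was 79.5 TPM beside 75.7 TPM in control and the sum was higher through Ets2 and Elf3. By level in control the order was Ets2, Ets1, Etv4, Etv6, Elf3, Elf1, Etv5, Etv1, Ehf and Erg, and only Etv6 and Elf3 overlapped as neighbours. In both knockouts Elf3 came second, after Ets2. In ZebDKO Etv1 dropped below Ehf in this order, and there only Etv6 and Elf1 overlapped. The order of levels and the shares depend on the gene lengths behind TPM. In the second deposited table, of control and Runx1KO cells, the control order began with Etv4 at 75.6 ± 2.64, Ets1 at 70.1 ± 2.65 and Ets2 at 66.2 ± 2.88 TPM (SD, n = 3), with Ets1 and Ets2 overlapping, while Ets2 and Elf3 led in Runx1KO there too.

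The genes closest to a called member in pattern, by the root mean square difference of centred log2(TPM+1) over the 9 libraries among 13374 genes, were as follows. For Elf3 they were Lad1 (difference 0.0895), with means of 101.0, 387.3 and 426.2 TPM in control, Runx1KO and ZebDKO, and Ocln (0.0914), the tight junction protein occludin, listed at 0 in all control libraries with means of 2.40 and 2.70 TPM in the knockouts. For Ets2 they were Myo7a (0.0572), at 2.2, 6.87 and 7.47 TPM, and Ampd3 (0.0635), at 5.57, 13.5 and 15.3 TPM. Ehf was nearest to Zfp976 (0.118), at 1.37, 3.9 and 1.93 TPM, and to Thbs1 (0.123), a secreted matrix protein at 187.0, 386.2 and 212.3 TPM. Etv1 was nearest to Smim15 (0.048), at 99.6, 114.1 and 40.4 TPM, and Dhrs9 (0.0537), at 3.0, 4.03 and 0.667 TPM. The change of a low gene comes out too small on this scale, so a small difference does not mean an equal fold change.

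Among 16 other Ets family genes, 10 reached 1 TPM in some library. Spi1, the myeloid factor PU.1, was listed at 0, 0 and 0.1 TPM in control, at 22.6, 26.4 and 26.8 TPM in Runx1KO and at 8.9, 8.2 and 10.7 TPM in ZebDKO. Spib, its relative in B cells, was at 0.4, 0 and 0.4 TPM in control, at 0.4, 0.3 and 0.5 TPM in Runx1KO and at 6.7, 6.3 and 5.7 TPM in ZebDKO. Both entered the test only through the libraries in which they are high, and they were the only calls of this list against control, with Spi1 higher in both knockouts and Spib in ZebDKO. Erf, a repressor of the family, had the highest level of the list, from 182.9 to 218.4 TPM over the 9 libraries. Between the knockouts Elk4, a partner of Srf, was also called, lower in ZebDKO (-1.08, limma adjusted p = 7.88e-06). Fli1, the closest relative of Erg, and Spic were at 0 in all 9 libraries.

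**Figure D4:**
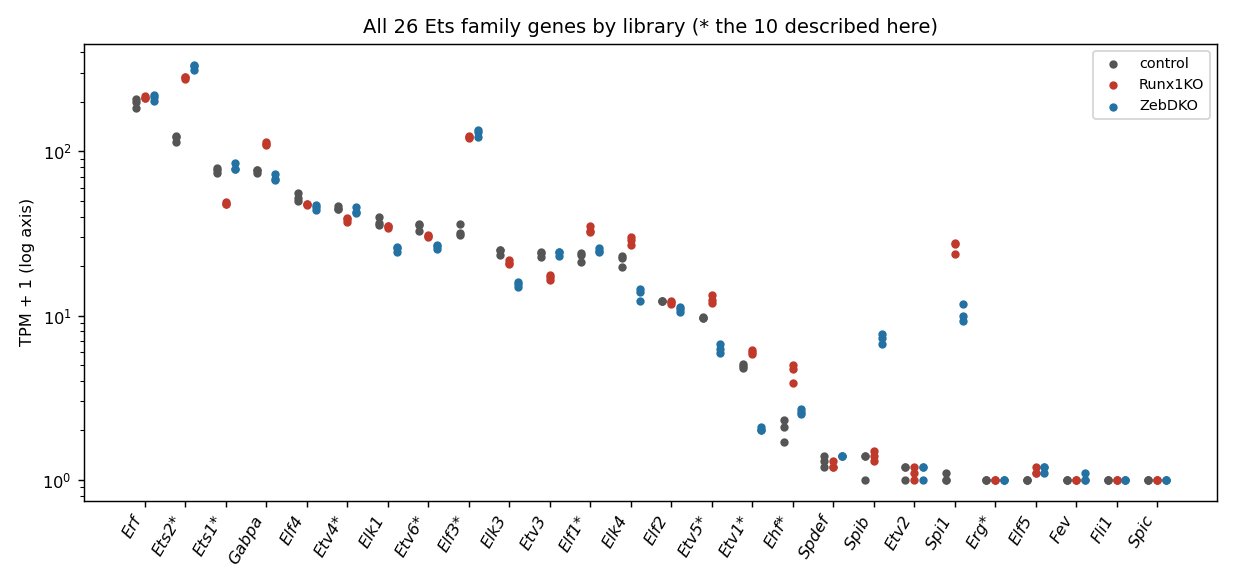
TPM + 1 on a log axis of all 26 Ets family genes, in order of the control mean, with 1 point for each of the 9 libraries and an asterisk on the 10 members. Elf3, Ets2 and Spi1 separate from control in both knockouts, Spib in ZebDKO, and the lowest genes sit at 0 TPM.

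No regulator of Ets factors was called. The list held 9 genes, among them Cic, which represses PEA3 genes, and Cop1 and Det1, which direct the breakdown of PEA3 proteins. All 9 were tested, with a median change of -0.08 in Runx1KO and -0.19 in ZebDKO cells, near the medians of all genes of -0.06 and -0.18. Several of the 9 still passed an adjusted p of 0.05 in limma, at changes under 2-fold that the median does not show. Of 9 partner genes, 1 was called against control. Fos, a subunit of AP-1, rose from 411.5 ± 10.8 TPM in control to 1500 ± 42.7 TPM in Runx1KO (change 1.86, limma adjusted p = 1.72e-08), and was at 752.0 ± 12.0 TPM in ZebDKO (0.87, limma adjusted p = 2.78e-07, under the limit). Jun, another AP-1 subunit, was at 712.1 ± 17.6 TPM in control, 1306 ± 17.3 TPM in Runx1KO (0.87, limma adjusted p = 2.07e-07) and 435.0 ± 9.39 TPM in ZebDKO (-0.71, limma adjusted p = 8.8e-07), under the limit in both. Runx2 RNA was lower by less than 2-fold in Runx1KO (5.47 to 3.73 TPM, -0.45, limma adjusted p = 0.00175) and in ZebDKO (-0.59, limma adjusted p = 0.000405). The paper reports unchanged Runx2 in Runx1KO cells by Western blot. Between the knockouts Jun and Runx1 were called lower in ZebDKO (-1.58 and -1.47, limma adjusted p = 1.59e-08 and 4.45e-07).

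Of 12 ERK response and feedback genes, 3 were called higher in Runx1KO and 3 others in ZebDKO, and 0 lower in either. Over all genes tested, 7.91% were called higher and 5.10% lower in Runx1KO, and 7.49% and 7.28% in ZebDKO. The activity of ERK, which switches Ets1, Ets2 and the PEA3 factors, was not measured. Dusp5 and Dusp6, phosphatases that switch ERK off, rose in Runx1KO cells, from 156.1 to 465.9 TPM (1.57, limma adjusted p = 6.53e-07) and from 133.4 to 373.5 TPM (1.48, limma adjusted p = 1.77e-07). Dusp6 was at 126.1 ± 6.17 TPM in ZebDKO, where the libraries overlapped control. In ZebDKO cells Spry4, an inhibitor of the pathway, rose from 3.17 to 19.0 TPM (2.26, limma adjusted p = 9.71e-08) and Ier3, an immediate early gene, from 1268 to 2935 TPM (1.21, limma adjusted p = 7.39e-08). The list median was 0.32 in Runx1KO and 0.20 in ZebDKO cells, beside -0.06 and -0.18 over all genes tested. Between the knockouts the list was called in both directions, with Dusp6 and Spry1 lower in ZebDKO (-1.56 and -1.96, limma adjusted p = 7.67e-08 and 2.39e-07) and Spry4 and Ier3 higher (2.08 and 1.13, limma adjusted p = 1.78e-07 and 2.65e-07).

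Gdnf, the ligand that signals through Ret to Etv4 and Etv5 in the ureteric bud, was at 13.1, 11.4 and 13.6 TPM in control, at 0.1 in all 3 Runx1KO libraries and at 38.6, 41.4 and 39.4 TPM in ZebDKO. It fell in Runx1KO (-3.63, limma adjusted p = 5.95e-08) and rose in ZebDKO cells (1.58, limma adjusted p = 1.03e-06). Its receptor genes Ret and Gfra1 were at 0 and at most 0.1 TPM in every library. Of the 10 genes of this list, which also holds genes downstream of Etv4 and Etv5 in the bud, Wnt11 and Myb were called higher in Runx1KO. Their levels were at most 1.6 TPM, and they entered the test only through these libraries. Sox8 was called higher in ZebDKO. It was at 1.4, 1.4 and 0.9 TPM in control and at 0.0, 0.1 and 0.1 TPM in Runx1KO, too low to be tested there.

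Several epithelial genes, above all keratins and a claudin, were higher in the knockouts, and others were not. The summed level of the 15 genes listed, most of it Krt8 in the knockouts, was 116.3 to 125.1 TPM in control, 2886 to 2972 TPM in Runx1KO and 1298 to 1355 TPM in ZebDKO. Many of these genes, such as Krt18, Cldn4, Grhl2, Esrp1 and Epcam, were near 0 in control and entered the test only through the knockouts, so calls over the list are not counted here. Grhl1 was at 8.90 TPM in control, 10.2 TPM in Runx1KO and 4.33 TPM in ZebDKO (-0.90 from control, limma adjusted p = 4.53e-05). Ovol1 had the same mean of 0.733 TPM in control and ZebDKO, but was higher in Runx1KO, at 2.9, 2.6 and 3.5 TPM. Esrp2, Cldn7 and Ovol2 were at most 0.3 TPM in every library. The keratin Krt8, at 2.43 ± 1.01 TPM in control, was at 2353 ± 46.4 TPM in Runx1KO and 1050 ± 32.0 TPM in ZebDKO, and Cldn4, a tight junction claudin, from 0.133 to 231.6 and 47.3 TPM. Krt19 was at 0.667, 87.0 and 4.53 TPM and Krt18 at 0.133, 32.4 and 42.8 TPM. Cdh1, the defining cadherin of epithelia, stayed at or below 0.6 TPM in all 9 libraries, and Epcam was at 0 in all but the ZebDKO libraries, at 28.3, 26.7 and 28.8 TPM. The part of these genes in the levels of Elf3 and Ets2 was not tested, and in bulk RNA more cells of a type and more RNA per cell cannot be told apart.

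Other marker lists were read as a check of the labels. Of 9 metanephric mesenchyme markers 5 reached 1 TPM, Pax2, Sall1, Osr1, Eya1 and Gdnf, while Six2, Wt1, Cited1 and Hoxd11 were at most 0.4 TPM in every library. Osr1 fell in both knockouts (-5.59 and -1.81, limma adjusted p = 6.94e-09 and 2.41e-07), and Eya1 in Runx1KO (-1.32, limma adjusted p = 1.45e-06). Pax2 and Sall1 were instead higher in Runx1KO (0.58 and 0.33, limma adjusted p = 6.21e-05 and 0.000725). In ZebDKO both were lower than control (-0.50 and -0.48, limma adjusted p = 3.3e-05 and 6.07e-05), each time under the 2-fold limit. Of 6 ureteric bud markers, Ret and Wnt9b were at 0 and Wnt11 was the only call, with summed levels of 67.7 to 75.2, 84.9 to 96.9 and 93.7 to 107.9 TPM in control, Runx1KO and ZebDKO, mostly Hoxb7. The 6 endothelial markers, which would travel with Erg, summed to at most 5.8 TPM in any library, nearly all of it Cdh5, which fell in Runx1KO (-1.14, limma adjusted p = 0.00028). The 6 blood cell markers, which bear on Spi1, summed to 2.5 to 3.3 TPM in control, 30.9 to 32.8 TPM in Runx1KO and 26.2 to 29.4 TPM in ZebDKO. In the knockouts most of this was Csf1r, the receptor of a macrophage growth factor, higher in both knockouts at 29.7 ± 0.850 and 24.5 ± 1.52 TPM, while in control most of it was Cd68, and Ptprc, the pan-leukocyte marker, was at 0 in all 9 libraries.

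Exact letters that Ets factors bind were counted in the middle 200 bp of the peaks of the whole genome, on both strands. Only the forms given below were searched. Other sites with a GGAA or GGAT core were not counted, so the shares are not those of all possible Ets sites. The Ets letters CCGGAAGT were in 0.217% of 8741 closing peaks (Wilson 95% interval 0.139 to 0.339%), in 0.711% of 9427 opening peaks (0.560 to 0.902%) and in 1.46% of 37481 stable peaks (1.35 to 1.59%). The lowest share was thus in closing peaks and the highest of the 3 classes in stable ones, with intervals that did not overlap. In ChIP-seq peaks the share was 1.80% for Runx1 (1.56 to 2.08%), with 2.09% (1.89 to 2.31%) and 2.29% (2.07 to 2.54%) of the Runx2 peaks of control and of Runx1KO, whose intervals overlapped. The composite Ets and Runx letters AGGATGTGG, which share bases with the Runx letters where a T follows, had the reverse order among the ATAC-seq classes in this window. They were in 0.778% of closing peaks (0.614 to 0.985%), 0.541% of opening peaks (0.412 to 0.711%) and 0.459% of stable peaks (0.395 to 0.533%), where the interval of closing peaks overlapped that of opening but not that of stable peaks. In Runx1 peaks the composite share was 1.03% (0.852 to 1.25%). Among peaks in the domains of the members, 1 stable peak, 304.4 kb after the start of Ets1, held the Ets letters in its middle 200 bp, and none of any class held the composite letters. A match is a run of letters and not a bound site, and the classes were not matched for base composition or distance to gene starts.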

How the data were processed

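RNA-seq, ATAC-seq and Runx ChIP-seq files of mK4 cells were used. Per the paper, the authors trimmed reads with Trim Galore, aligned them with STAR to mm9, removed duplicates with sambamba and counted RefSeq genes with featureCounts. They deposited TPM per library, in a table of 9 libraries with 1 decimal and a table of 6 libraries that gives other levels for the same genes. Which gene lengths were taken and whether strand was used in counting were not given in the sources used here. TPM keeps no read number, so the depth of each library cannot be read from the files. Every value column was matched to its labels.

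The authors called ChIP-seq peaks with MACS2 on combined replicates and took out background peaks that the Runx1 antibody also gave in cells without Runx1. Of the deposited columns the fold over background was used, and the score and the −log10 p and q values were not. For ATAC-seq the authors required a peak in 2 or more of the 3 replicates, and the deposited lists hold 3 classes of them. The deposited log2 fold changes and −log10 values of these lists are the authors' own comparison and were not used beyond the class. No list holds values per replicate.

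Genes reaching 1 TPM in 3 or more of the 6 libraries compared entered a fit of log2(TPM+1) in R 4.3.3 with limma 3.58.1 and a trend in the prior variance, with Benjamini-Hochberg adjustment, and called over 2-fold at an adjusted p under 0.05. The fit was tested on simulated data. Peaks were placed on GENCODE vM1 models with Python 3.11.15, and sequences were read from mm9 with pysam 0.24.0. An overlap was at least 1 bp. Alternatives were a pseudocount of 0.1, no filter, 5 TPM, median-ratio scaling, all 9 libraries in 1 fit, no trend, the replicate number as a block, each library left out, the 6-library table, windows of 100 and 20 kb around the start, and motif counts in whole peaks.

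The members, gene lists and tests were chosen with earlier results of these data known. Text names all 10 members, the genes of each list called against control or the 4 with the largest change, and the 2 genes closest in pattern to each member called against control. Erf, Elk4, Jun, Runx2, Spry1, Grhl1, Ovol1, Pax2, Sall1, the genes at 0 and the peaks printed were picked after their values were seen. For the list of regulators, 1 gene is not reported here.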

Additional observations from a re-analysis of the deposited data

Results flagged for a closer look

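Etv1 differed between the knockouts, with ZebDKO lower than Runx1KO by -1.56 on the log2 scale (limma adjusted p = 1.05e-06). The 3 Runx1KO libraries, at 4.8 to 5.2 TPM, were above the 3 control libraries, at 3.8 to 4.1 TPM, and the 3 ZebDKO libraries, at 1.0 to 1.1 TPM, were below them.

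Etv5 lay on opposite sides of control in the knockouts, by less than 2-fold in each, so that it was called in neither. The 3 Runx1KO libraries, at 10.9 to 12.3 TPM, were all above control, at 8.6 to 8.8 TPM, and the 3 ZebDKO libraries, at 4.9 to 5.7 TPM, were all below it. The direct difference was -0.997 (limma adjusted p = 8.86e-06). The cause of neither was tested.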

How the results depend on the processing

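Of 354 alternative values of a member's change, 348 kept their direction and whether the member was called, and 1 reversed. The reversed value was that of Etv4 in ZebDKO cells, at 0.14 with median-ratio scaling. The adjusted p alone crossed 0.05 in 11 of the 354, of which 5 came with median-ratio scaling. These 11 were for Ehf, Elf1, Ets1 and Etv4 in ZebDKO cells and for Elf3 and Etv6 between the knockouts. Against control, 3 members were called in each knockout whichever library was left out. The count was 2 in both at a filter of 5 TPM, which takes Ehf and Etv1 out of the test, and 2 in Runx1KO cells in the 6-library table, where Ehf was at 0.85. Between the knockouts the count of 1 became 3 with a pseudocount of 0.1 (Ehf, Etv1 and Etv5) and 0 at a filter of 5 TPM, which leaves Etv1 out of the test. It ranged from 1 to 2 without each library, and was 2, with Etv5 added, without Runx1KO replicate 1 or without ZebDKO replicate 2, at -1.04 in both cases. At 5 TPM, 442 genes were called lower in Runx1KO cells and 566 higher between the knockouts, fewer genes being tested.

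The median of all genes was -0.18 in ZebDKO cells, and 0.00398 with median-ratio scaling, which turned 972 higher and 944 lower calls into 1184 and 661. Between the knockouts the split of 862 and 1203 became 1058 and 909.

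With the replicate number as a block, 3, 3 and 1 members were called, with 1040 genes higher and 669 lower in Runx1KO cells. Libraries of the same number did not deviate together (r from -0.0532 to 0.0385), and the block changed no call of a member.

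Within 20 kb of the start, 4 members had a closing peak, 1 a Runx1 peak, and 6 and 4 a Runx2 peak in control and Runx1KO cells, and 3 had a Runx1 peak within 100 kb. In whole peaks the Ets letters were in 0.709% of closing, 1.57% of opening and 4.22% of stable peaks and 2.81% and 3.52% of Runx2 peaks of control and Runx1KO cells. The composite letters were in 2.11%, 1.44% and 1.49% of these classes and in 0.864% of Runx2 peaks of Runx1KO cells. The ATAC-seq peaks had median widths of 613, 505 and 624 bp, and with whole peaks the composite share was no longer lowest in stable peaks. The rank of Ets2 among the members in control was 3 in the 6-library table, an alternative chosen after seeing the data.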
